A study of Mus musculus with 6 samples.

Results

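The genes described here encode the chains through which a T helper cell reads IL-23, IL-1 and IL-6, together with the inhibitors of the IL-1 branch. The members were chosen by name, with earlier results of these data known, and the rule used no measured value. It holds 8 of the 16244 genes in the deposited table, namely *Il23r*, *Il12rb1*, *Il6ra*, *Il6st*, *Il1r1*, *Il1rap*, *Il1r2* and *Il1rn*, and all 8 passed the filter on low values.

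The series compared Th17 cells of 2 genotypes by RNA-seq, with 3 libraries each. WT cells came from C57BL/6 mice, and RORγtN275D cells came from knock-in mice on a C57BL/6 background. In the knock-in mice, CRISPR/Cas9 editing had changed residue N275 of RORγt, in its ligand-binding domain, to D. The methods describe purchased WT mice and mention littermate controls, when applicable, only for the transfer experiments. Whether the mice behind these libraries were littermates is not given. RORγt is the transcription factor that directs Th17 differentiation. Naive CD4+ T cells from spleen were activated through CD3 and CD28 and kept for 3 days under pathogenic Th17 conditions, which both genotypes shared. The methods list TGF-β, IL-6, IL-23, IL-1β and antibodies that block IL-4 and IFN-γ, whereas the study's results section names IL-6, IL-1β and IL-23. The change is in the germline, so it was present in every cell of the mutant mice. The methods give a general age range for the study's mice and describe groups of both sexes matched for age and sex, but they do not give the age, sex, zygosity or number of the mice behind each of these libraries. The study calls the libraries of a genotype replicates, and its general statement on n allows independent samples, mice or experiments without saying which applies here. The p-values therefore measure the spread between these libraries, which may be technical.

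The IL-23 receptor pairs IL-23R, which binds the cytokine-specific subunit, with IL-12Rβ1. IL-12Rβ1 also serves the IL-12 receptor, where its partner is IL-12Rβ2. IL-6 binds IL-6Rα, and the complex then recruits gp130, the shared signalling chain encoded by *Il6st*. IL-23R and gp130 both act through Janus kinases and STAT3. IL-1 binds IL-1R1, which signals only with the accessory chain IL-1RAcP (*Il1rap*), through MyD88 and IRAK kinases. The decoy receptor IL-1R2 binds IL-1 without signalling, and the receptor antagonist encoded by *Il1rn* occupies IL-1R1 without activating it. In Th17 cells IL-6 starts the programme, and IL-1β and IL-23 are known for sustaining it and for favouring pathogenic effector function.

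Among the receptor genes tested here, the 3 with the largest log2 fold change in either direction were *Il23r*, *Il1r2* and *Il12rb2*, the last of which is no member of the list but the genomic neighbour of *Il23r* and the other partner of IL-12Rβ1. Their upstream sequences are therefore shown, 5′ to 3′ on the strand of the gene, from RefSeq (GRCm38.p6). The *Il23r* and *Il12rb2* windows are the 250 bases before an annotated start, at chr6:67491856-67492105 (minus strand) and chr6:67376189-67376438 (minus strand). The *Il12rb2* start lies within the gene, whose 5′ end is at 67376293, so part of that window does too. The *Il1r2* stretch shown, chr1:40085843-40085984 (plus strand), holds the first 142 of the 250 bases before an annotated start that lies within the gene. It stops where an annotated exon begins. Capitals mark matches, on either strand, to AGGTCA (the core letters of ROR binding elements), ACGTG (the core letters of HIF response elements) or TTCNNNGAA (the STAT palindrome). The first of the AGGTCA matches in *Il23r* is on the opposite strand and therefore reads TGACCT.
Il23r: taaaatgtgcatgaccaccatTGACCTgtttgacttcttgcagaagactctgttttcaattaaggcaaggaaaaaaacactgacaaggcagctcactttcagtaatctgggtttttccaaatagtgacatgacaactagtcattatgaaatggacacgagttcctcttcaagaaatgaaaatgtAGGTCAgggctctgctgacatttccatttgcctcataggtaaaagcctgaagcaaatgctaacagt
Il12rb2: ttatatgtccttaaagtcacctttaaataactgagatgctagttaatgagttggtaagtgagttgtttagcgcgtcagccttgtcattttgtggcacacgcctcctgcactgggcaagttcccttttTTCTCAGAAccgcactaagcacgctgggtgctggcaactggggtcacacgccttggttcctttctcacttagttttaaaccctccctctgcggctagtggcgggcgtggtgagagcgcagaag
Il1r2: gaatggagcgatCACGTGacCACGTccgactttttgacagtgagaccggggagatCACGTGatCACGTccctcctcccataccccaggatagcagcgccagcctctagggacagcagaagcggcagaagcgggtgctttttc

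The *Il23r* window held 2 AGGTCA matches, 229 and 66 bases before the start. Of 32851 RefSeq promoter windows of 250 bases, 14.0% held at least 1 match and 1.34% held at least 2 that did not overlap. The *Il12rb2* window held no AGGTCA and 1 TTCNNNGAA, a motif found in 7.02% of windows. The full *Il1r2* window held 6 ACGTG matches, 238 to 187 bases before the start. They form 4 stretches, because CACGTG is read on both strands and counts as 2. The window also held 1 TTCNNNGAA that starts 111 bases before the start and runs past the stretch shown. At least 1 ACGTG stood in 16.6% of windows, and 4 or more separate stretches stood in 16 windows, or 0.0487%. Of the other members, *Il1rn* held 1 AGGTCA, *Il1r1* and *Il1rap* 1 ACGTG each, *Il6ra* 1 palindromic ACGTG stretch and *Il6st* none of the 3 motifs, over the windows listed for them. *Il12rb1* had no entry. A match describes the letters only. No binding was measured in these libraries.

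Values are normalized reads, that is, reads counted on a gene by the authors and scaled by a single factor for all genes of a library. Total reads on genes were close, between 17905693 and 18510878 in the WT libraries and between 17659035 and 17888463 in the RORγtN275D libraries. Pairs of libraries of 1 genotype had a median chi-square per gene of 1.30 to 3.09 times what counting gives, and WT replicate 3 stood farthest from its group. Gene totals do not show an amino acid substitution, so they do not check the genotype labels. The Th17 markers were all detected, and their summed level was between 76523 and 80727 normalized reads in WT and between 88567 and 89536 in RORγtN275D libraries.

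The 8 chains did not all move one way. By limma at an adjusted p under 0.05, *Il23r*, *Il1r2* and *Il6st* were higher in RORγtN275D cells, *Il12rb1*, *Il1rap* and *Il6ra* were lower, and *Il1r1* and *Il1rn* did not pass the test. Calls were common in this comparison, with 50.9% of the 11908 genes tested called, 24.7% higher and 26.1% lower. No member reached 2-fold by the same limma test, whereas 6 had an unadjusted p under 0.05; 2-fold calls made up 3.59% of all genes tested, and those in the higher direction 2.73%. The median log2 fold change over the 8 members was -0.08, beside -0.00259 over all genes tested. In each of the 6 called members the 3 libraries of one genotype lay wholly above those of the other, a pattern seen in 57.7% of genes tested (28.1% higher and 29.6% lower in RORγtN275D cells). In bulk RNA, fewer cells of a type and less RNA per cell cannot be told apart.

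**Figure D1:**
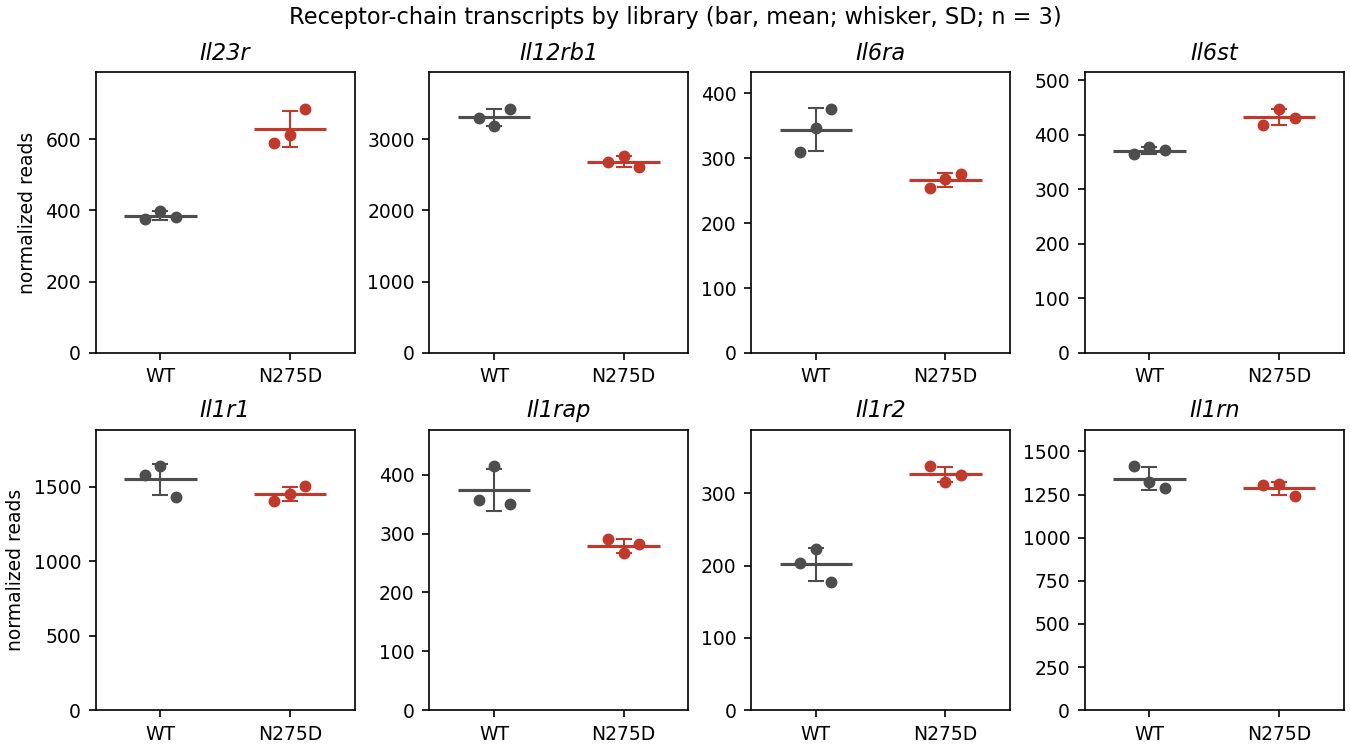
Normalized reads of each receptor chain in every library, by genotype, with 1 point per library and a bar and whisker for the mean and SD. The groups are separate for *Il23r*, *Il12rb1*, *Il6ra*, *Il6st*, *Il1rap* and *Il1r2* and overlap for *Il1r1* and *Il1rn*.

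The IL-23-specific chain *Il23r* (GRCm38.p6 chromosome 6, 67422932 to 67491855, minus strand) had 375, 399 and 381 normalized reads in the WT libraries. It had 589, 612 and 685 in the RORγtN275D libraries, so that the lowest mutant library lay above the highest WT library. The means were 385 ± 12.5 and 629 ± 50.3 (SD, n = 3), an increase of 62.7% (log2 fold change 0.70, standard error 0.07, adjusted p = 3.25e-07, limma). An absolute change at least this large was seen in 7.42% of genes tested.

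The partner chain *Il12rb1* (chromosome 8, 70808360 to 70823542, plus strand) moved the other way. Its WT libraries held 3297, 3186 and 3423 normalized reads and its RORγtN275D libraries 2680, 2756 and 2606. The mean decreased from 3302 ± 119 to 2681 ± 74.8 (SD, n = 3; log2 fold change -0.30, standard error 0.04, adjusted p = 1.67e-05, limma). Its lowest library held 2639 reads, and counting alone gives a coefficient of variation of 1.74% in WT.

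The change of *Il12rb2*, the IL-12-specific chain, was larger than that of any member. It had 1160, 1180 and 1146 normalized reads in WT and 2825, 2765 and 2780 in RORγtN275D libraries. The mean rose 2.40-fold, from 1162 ± 17.1 to 2790 ± 31.4 (SD, n = 3; log2 fold change 1.26, standard error 0.04, adjusted p = 9.25e-13, limma). *Il12rb2* (chromosome 6, 67285986 to 67376293, minus strand) lies 46638 bases from *Il23r*, with only the predicted genes *Gm8574*, *Gm4761* and *Gm44083* wholly between them. Its exons overlap those of *Serbp1* on the opposite strand. The methods describe strand-specific libraries, but whether the counting used strand is not given. *Serbp1* fell, from 18611 ± 260 to 16198 ± 398 normalized reads (SD, n = 3; log2 fold change -0.20, adjusted p = 8.97e-05, limma), the opposite direction to *Il12rb2*.

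Both specific chains were thus higher where the shared chain was lower. Per read of *Il12rb1*, *Il23r* had 0.114, 0.125 and 0.111 reads in the WT libraries and 0.220, 0.222 and 0.263 in the RORγtN275D libraries. The mean ratio was 0.117 ± 0.00750 in WT and 0.235 ± 0.0243 in RORγtN275D libraries (SD, n = 3), a difference of 1.00 on the log2 scale (standard error 0.10). The ratio of *Il23r* to *Il12rb2* was below the WT range, at 0.332 ± 0.00739 in WT and 0.225 ± 0.0194 in RORγtN275D libraries (SD, n = 3; log2 difference -0.56, standard error 0.07). Both ratios had an exact two-sided permutation p = 0.1, which is the smallest that 3 libraries against 3 can give. Of the 2 specific partners of IL-12Rβ1, the IL-12 chain had the larger log2 fold change, 1.26 against 0.70.

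**Figure D2:**
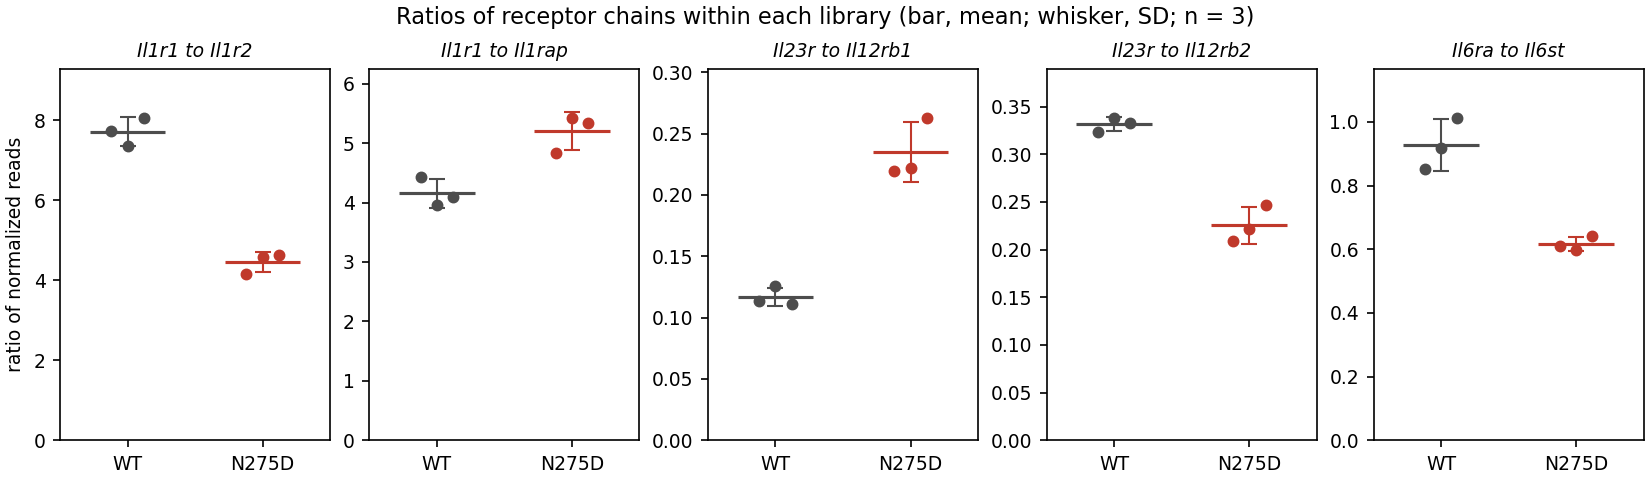
Ratios of normalized reads between receptor chains in each library, with 1 point per library and a bar and whisker for the mean and SD. In all 5 ratios the RORγtN275D libraries lie outside the WT range, above it for *Il23r* to *Il12rb1* and *Il1r1* to *Il1rap* and below it for the other 3.

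Of the IL-6 receptor, the ligand-binding chain was lower and the signalling chain higher. *Il6ra* (chromosome 3, 89869324 to 89913196, minus strand) had 310, 346 and 376 normalized reads in WT and 255, 268 and 277 in RORγtN275D libraries. Every mutant library lay below every WT library, and the mean decreased from 344 ± 33.2 to 266 ± 11.1 (SD, n = 3; log2 fold change -0.36, standard error 0.08, adjusted p = 0.00127, limma). Antisense *Gm42809* overlaps exons of *Il6ra* and has no values used here. Gene totals also do not separate the membrane receptor from its soluble forms.

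*Il6st*, which encodes gp130 (chromosome 13, 112464070 to 112506860, plus strand), had 364, 377 and 371 normalized reads in WT and 418, 447 and 432 in RORγtN275D libraries. The mean increased by 16.5%, from 371 ± 6.46 to 432 ± 14.6 (SD, n = 3; log2 fold change 0.22, standard error 0.06, adjusted p = 0.00774, limma). This was the smallest change among the called members, and 42.9% of all genes tested had a larger absolute change. The ratio of *Il6ra* to *Il6st* was 0.850, 0.917 and 1.013 in WT and 0.609, 0.599 and 0.641 in mutant libraries. The means were 0.927 ± 0.0818 and 0.616 ± 0.0220 (SD, n = 3), a log2 difference of -0.58 (standard error 0.08, exact two-sided permutation p = 0.1, the smallest possible).

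In the IL-1 branch, the signalling chain showed no called difference while the decoy was higher and the accessory chain lower. *Il1r1* (chromosome 1, 40222480 to 40316201, plus strand) had 1578, 1638 and 1434 normalized reads in WT and 1406, 1449 and 1502 in RORγtN275D libraries. The groups overlapped through WT replicate 3, which lay below 2 of the mutant libraries. The log2 fold change was -0.09, with a 95% interval from -0.20 to 0.02 and an adjusted p of 0.153 (limma), an interval that does not reach the decrease of *Il12rb1*. Without WT replicate 3 the gene was called lower (log2 fold change -0.15, adjusted p = 0.00496), and with library weights as well (-0.13, adjusted p = 0.0178).

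The accessory chain *Il1rap* (chromosome 16, 26581509 to 26730128, plus strand) had 356, 415 and 351 normalized reads in WT and 291, 267 and 281 in RORγtN275D libraries, with no overlap. The mean decreased from 374 ± 35.4 to 280 ± 11.9 (SD, n = 3; log2 fold change -0.41, standard error 0.08, adjusted p = 0.000343, limma). It was the largest decrease among the members. Antisense *Gm20319* overlaps its exons and has no values used here.

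The decoy receptor *Il1r2* (chromosome 1, 40084692 to 40125230, plus strand) had 204, 223 and 178 normalized reads in WT and 337, 316 and 325 in RORγtN275D libraries. All 3 mutant libraries exceeded all WT libraries. The mean increased by 62.1%, from 202 ± 22.7 to 326 ± 10.8 (SD, n = 3; log2 fold change 0.70, standard error 0.09, adjusted p = 5.97e-06, limma). The WT libraries varied by 11.2% (coefficient of variation), where counting alone gives 7.05%, and the lowest library held 181 reads. Only 7.48% of genes tested had a larger absolute change.

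The receptor antagonist *Il1rn* (chromosome 2, 24336860 to 24351491, plus strand) had 1415, 1323 and 1288 normalized reads in WT and 1306, 1313 and 1244 in RORγtN275D libraries. The groups overlapped, and the means were 1342 ± 65.7 and 1288 ± 37.8 (SD, n = 3). The log2 fold change was -0.06 with a 95% interval from -0.16 to 0.04 (adjusted p = 0.334, limma). Of the inhibitors of IL-1, the decoy was thus called and the antagonist was not.

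The ratio of *Il1r1* to its decoy was 7.74, 7.35 and 8.07 in WT libraries and 4.17, 4.58 and 4.62 in RORγtN275D libraries. Its mean was 7.72 ± 0.359 in WT and 4.46 ± 0.254 in mutant libraries (SD, n = 3), a log2 difference of -0.79 (standard error 0.06). Against the accessory chain, *Il1r1* had 4.16 ± 0.245 reads per *Il1rap* read in WT and 5.20 ± 0.318 in mutant libraries (SD, n = 3; log2 difference 0.32, standard error 0.07). Neither ratio overlapped between the genotypes, and both had an exact two-sided permutation p = 0.1, the smallest possible. With 5 ratios compared, none could pass a threshold of 0.05 by this test.

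**Figure D3:**
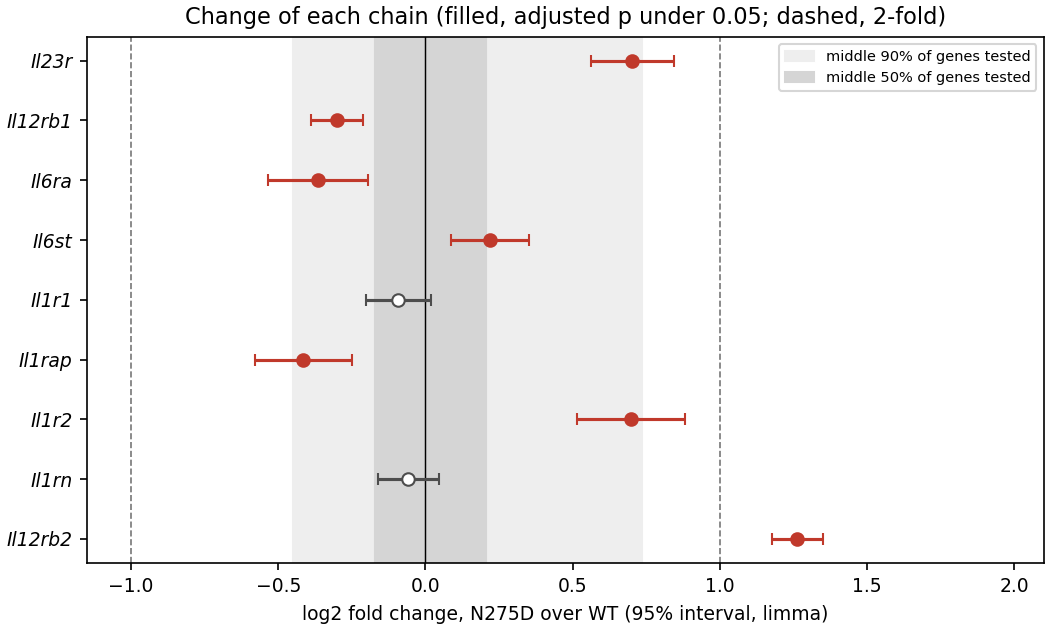
Log2 fold change (RORγtN275D over WT) of each chain and of *Il12rb2*, with 95% intervals from limma; filled points have an adjusted p under 0.05, and the dark grey band holds the middle 50% of all genes tested and the light one those from the 5% to the 95% point. *Il23r* and *Il1r2*, both at 0.70, lie near the upper edge of the light band, *Il12rb2* at 1.26 lies beyond it, and the intervals of *Il1r1* and *Il1rn* include 0.

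Levels between genes were compared per kilobase of annotated exon (GENCODE M21). The length merges all annotated exons of a gene. Which transcripts the cells made was not measured, so the order of genes with close levels depends on this choice. In WT cells the order was *Il12rb1* (804 ± 29.0 normalized reads per kb), *Il12rb2* (306 ± 4.50), *Il1r1* (244 ± 16.5), *Il1rn* (242 ± 11.9), *Il23r* (155 ± 5.04), *Il1r2* (106 ± 11.9), *Il6ra* (39.8 ± 3.84), *Il6st* (33.4 ± 0.582) and *Il1rap* (32.9 ± 3.12; all SD, n = 3). The libraries of *Il1r1* and *Il1rn*, and those of *Il6st* and *Il1rap*, overlapped, and the other neighbours in this order did not. In RORγtN275D cells *Il12rb2* came first (735 ± 8.28), above *Il12rb1* (653 ± 18.2). *Il23r* (253 ± 20.2) overlapped with *Il1rn* (233 ± 6.83), and *Il1rn* with *Il1r1* (228 ± 7.60). *Il1r2* followed at 171 ± 5.64, *Il6st* at 39.0 ± 1.31, *Il6ra* at 30.8 ± 1.28 and *Il1rap* at 24.6 ± 1.05 (SD, n = 3), without overlap. Per kb, the order of *Il6ra* and *Il6st* was thus opposite in the 2 genotypes. In reads not divided by length, *Il6ra* had the lower mean in both (344 against 371 in WT and 266 against 432 in RORγtN275D libraries). The accessory chain was the lowest of all per kb in the mutant cells. *Il23r*, below *Il1r1* in WT, lay just above *Il1r1* there, with 237 normalized reads per kb in its lowest library against 236 in the highest of *Il1r1*. This narrow order rests on the exon lengths used, since in reads not divided by length *Il23r* had the lower mean (629 against 1452).

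**Figure D4:**
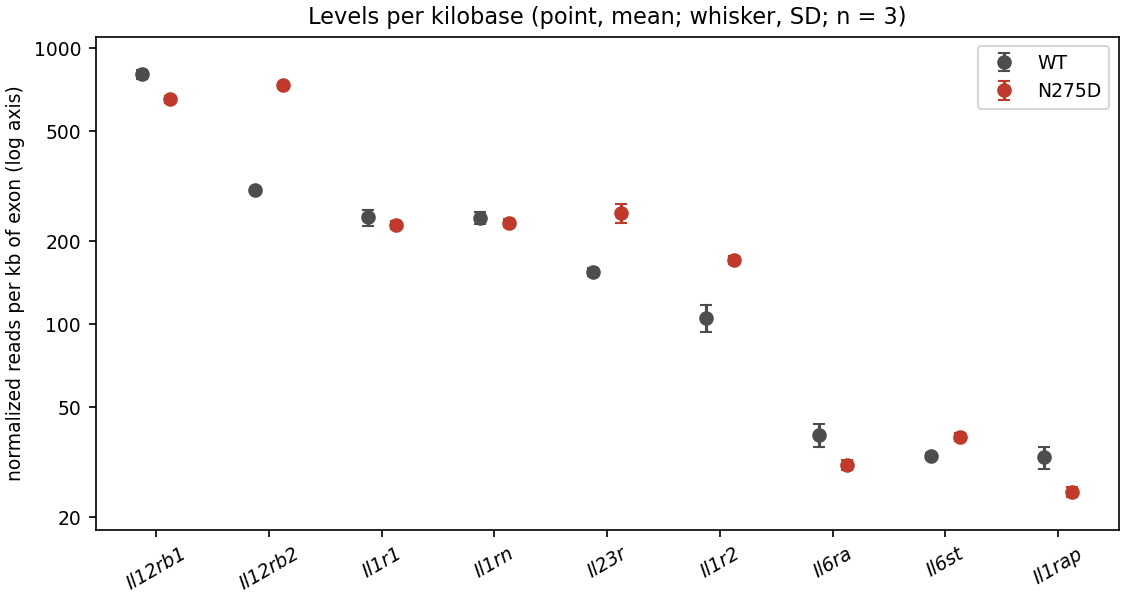
Normalized reads per kb of exon (log axis) of the 8 chains and *Il12rb2*, as mean with SD over 3 libraries per genotype, in the WT order. *Il12rb1* and *Il12rb2* exchange the first place between the genotypes, and *Il6ra*, *Il6st* and *Il1rap* lie lowest in both.

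*Il1r2* and *Il1r1* open a cluster of 6 IL-1 receptor family genes on chromosome 1 that spans 467016 bases, with 97249 bases between the pair. The 4 genes behind them were all lower in RORγtN275D cells. *Il1rl2*, which encodes the IL-36 receptor (40324589 to 40367555), had a log2 fold change of -0.18 (adjusted p = 0.0104, limma), and *Il1rl1*, the IL-33 receptor (40404864 to 40465418), -0.48 (adjusted p = 0.0299). The IL-18 receptor chains *Il18r1* (40465552 to 40500854) and *Il18rap* (40515362 to 40551707) had -0.25 (adjusted p = 0.0030) and -0.15 (adjusted p = 0.0354). *Il1r2*, at the first position, was the only gene of the cluster that was higher. The means went from 787 ± 5.49 to 711 ± 42.8 normalized reads for *Il18rap* and from 47.7 ± 6.91 to 33.9 ± 2.80 for *Il1rl1* (SD, n = 3). The count of 4 lower genes fell to 1 without RORγtN275D replicate 2 and to 2 without WT replicate 1, WT replicate 2 or RORγtN275D replicate 1, and became 5 without WT replicate 3, where *Il1r1* was added. Of the 5 other IL-1 family receptors tested, the same 4 were lower and 0 higher by limma (0 higher also at an unadjusted p under 0.05), and the median log2 fold change was -0.18. This count of 4 fell to the same 1 and 2 without those libraries. The fifth, *Sigirr*, an inhibitory receptor outside the cluster, had 0.07 (adjusted p = 0.202). Over all genes tested, 24.7% were called higher and 26.1% lower, shares to set beside this and the later list counts.

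The other receptors that use gp130 or its relatives gave 1 higher and 2 lower of 4 tested, with a median log2 change of -0.19. *Il12rb2* was the higher one, and the oncostatin M receptor *Osmr* fell from 48.1 ± 13.3 to 29.5 ± 4.48 normalized reads (SD, n = 3; log2 fold change -0.66, adjusted p = 0.0141, limma). *Il27ra*, whose product pairs with gp130 to bind IL-27, fell as well (log2 fold change -0.42, adjusted p = 4.65e-06). The count of 2 lower became 1 without WT replicate 2 or RORγtN275D replicate 1. *Il11ra1* did not pass the test (log2 fold change 0.04, adjusted p = 0.886, limma). *Il6st* was thus higher in the same libraries in which *Osmr*, *Il27ra* and *Il6ra* were lower and *Il12rb2* was higher.

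Of the ligands, *Il23a*, which encodes the p19 subunit specific to IL-23, had 32.3, 36.3 and 38.3 normalized reads in WT and 64.9, 69.2 and 81.0 in RORγtN275D libraries. It rose 1.98-fold (log2 fold change 0.99, standard error 0.15, adjusted p = 6.39e-05, limma). Among the 8 IL-6 and IL-12 family ligands tested, 4 were higher and 2 lower, with a median log2 change of 0.20. The lowest called was *Il27* (log2 fold change -0.85, adjusted p = 0.0281), with overlapping groups of 18.2 to 46.2 normalized reads in WT and 11.9 to 20.1 in mutant libraries. The count of 2 lower became 0 without WT replicate 3 or RORγtN275D replicate 3, and 1 without WT replicate 1 or either of the other mutant libraries. *Il6* did not pass the test, with 63.3 ± 6.24 and 58.7 ± 7.53 normalized reads (SD, n = 3; adjusted p = 0.562).

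*Il1a*, an agonist of IL-1R1, had 181, 199 and 183 normalized reads in WT and 63.9, 64.2 and 55.3 in RORγtN275D libraries. It fell to 0.329 of the WT level (log2 fold change -1.60, standard error 0.11, adjusted p = 6.91e-09, limma), the largest change among the IL-1 family ligands that passed the filter. *Il33*, the ligand of the receptor encoded by *Il1rl1*, rose from 260 ± 20.7 to 438 ± 45.4 normalized reads (SD, n = 3; log2 fold change 0.75, adjusted p = 2.20e-06). Of the 4 ligands and binding proteins tested, 1 was higher and 2 lower, with a median of -0.29. The count of 1 higher became 2 without WT replicate 1 or RORγtN275D replicate 3, and the count of 2 lower became 1 when any library other than RORγtN275D replicate 1 was left out. *Il1b*, the other agonist, was under the filter and not tested. It had 4.04, 0 and 2.95 normalized reads in WT and 14.0, 8.03 and 9.88 in RORγtN275D libraries, the opposite direction to *Il1a* at very low counts. IL-1β, IL-6 and IL-23 were added to the cultures, so transcript levels do not measure how much of them the cells met.

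Proteases that shed these receptors or process IL-1 gave 0 higher and 2 lower of 6 tested by limma, with 0 higher and 4 lower at an unadjusted p under 0.05 and a median log2 change of -0.13. The 2 were *Adam17*, a sheddase of IL-6Rα and IL-1R2 (log2 fold change -0.21, adjusted p = 0.00137), and *Erap1*, an aminopeptidase linked to receptor shedding (-0.21, adjusted p = 0.0109). The count of 2 lower became 1 without WT replicate 1 and 3 without WT replicate 3, and 1 was higher without WT replicate 2 or WT replicate 3. No receptor protein, membrane or soluble, was measured in these libraries.

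Downstream of IL-1R1, 8 genes of 18 tested were higher and 4 lower, beside 24.7% and 26.1% of all genes tested. The list median log2 change was 0.10. Among the called genes the extremes were *Irak3*, an inhibitory member of the IRAK family, which rose from 17.6 ± 3.93 to 28.2 ± 5.08 normalized reads (SD, n = 3; log2 fold change 0.66, adjusted p = 0.0333, limma), and *Irak2*, which fell from 1675 ± 107 to 1193 ± 29.8 (log2 fold change -0.49, adjusted p = 9.23e-07). The adaptor *Myd88*, named after its value was seen, fell as well (log2 fold change -0.35, adjusted p = 9.78e-06). Of the Janus kinase and STAT genes behind IL-6 and IL-23, 7 of 13 were higher and 4 lower, with a median of 0.19. The feedback inhibitor *Socs3*, which binds gp130, had the highest change, from 1280 ± 63.0 to 2494 ± 59.5 normalized reads (SD, n = 3; log2 fold change 0.96, adjusted p = 8.67e-11), and *Jak2*, the kinase bound to IL-23R, the lowest (-0.40, adjusted p = 1.41e-05). *Tyk2*, the kinase bound to IL-12Rβ1, and *Stat3*, both named after their values were seen, rose by 0.19 (adjusted p = 0.00335) and 0.22 (adjusted p = 2.85e-05) on the log2 scale.

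Genes that respond to IL-6 and STAT3 were divided, with 6 of 14 higher, 7 lower and a median log2 change of -0.06. *Socs3* was again the highest, and *Fos* the lowest, at -0.60 (adjusted p = 0.000110, limma). Of 12 Th17 effector genes linked to IL-23 and IL-1, 9 were higher and 3 lower, beside 24.7% and 26.1% of all genes tested. The list median was 0.31. *Il24* rose from 719 ± 50.2 to 2014 ± 80.4 normalized reads (SD, n = 3; log2 fold change 1.49, adjusted p = 5.35e-12). *Ccl20*, which encodes the CCR6 ligand, fell from 113 ± 16.5 to 36.2 ± 5.66 (log2 fold change -1.62, adjusted p = 3.82e-07). These were the 2 effector genes past 2-fold, in opposite directions. The other lower effector genes were *Csf2* (log2 fold change -0.64, adjusted p = 4.14e-07, limma) and *Tbx21* (-0.83, adjusted p = 5.19e-08), both named after their values were seen. The lists were chosen with earlier results of these samples known, so their counts are not independent evidence of a direction.

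**Figure D5:**
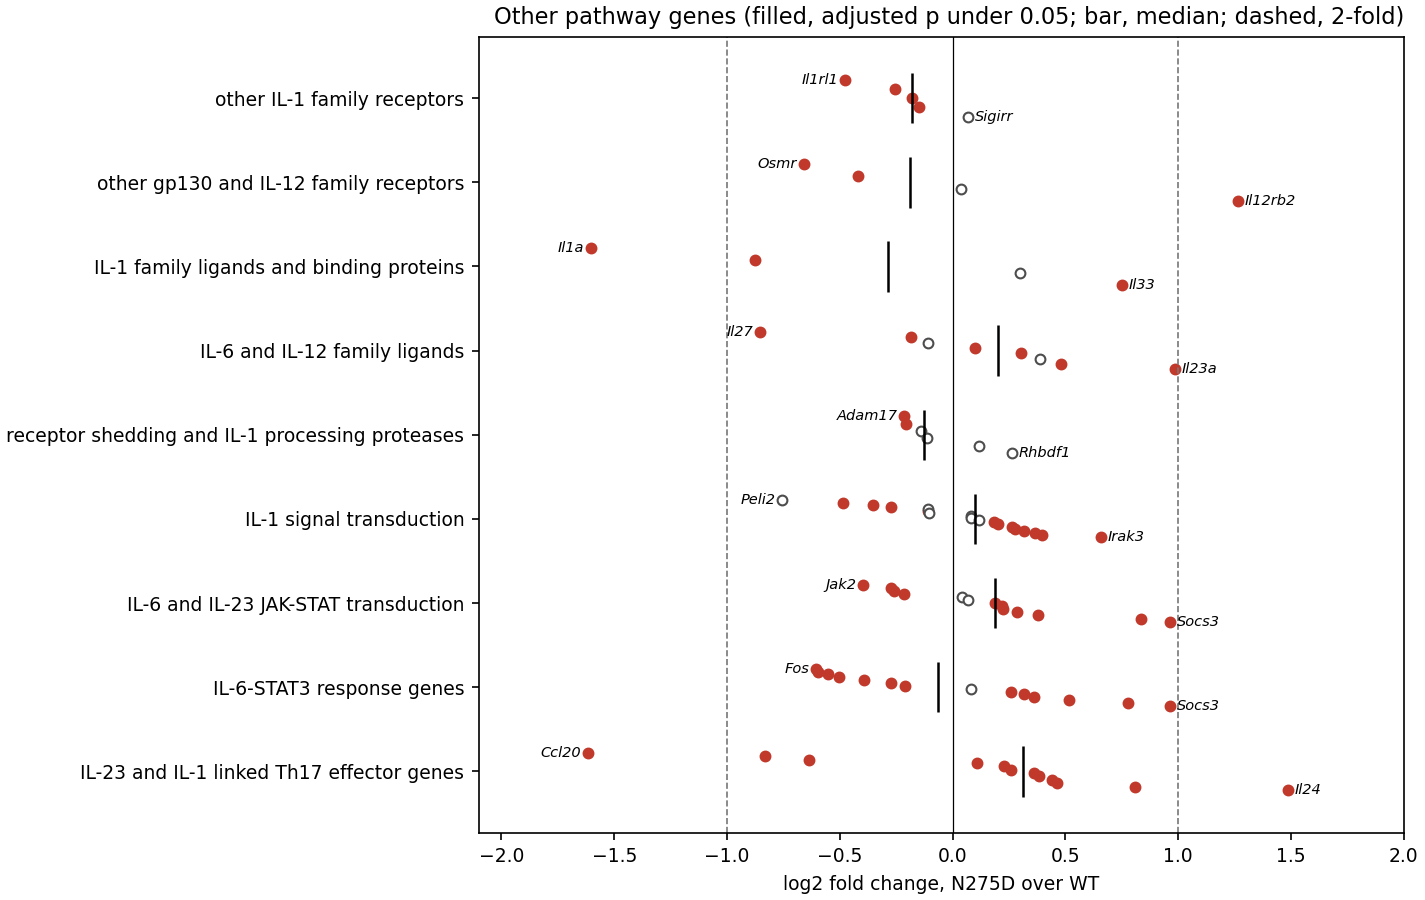
Log2 fold change (RORγtN275D over WT) of the other genes of the pathway, 1 point per gene in each list; filled points have an adjusted p under 0.05 by limma, the short bar is the list median and the dashed lines mark 2-fold. The list medians lie between -0.29 (IL-1 ligands and binding proteins) and 0.31 (effector genes), and every list but those of the other IL-1 family receptors and the proteases has called genes on both sides of 0.

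The genes whose pattern over the 6 libraries was most like that of *Il23r* were *Akap13*, *Ccdc82* and *Jazf1*, with Pearson's r of 0.999, 0.999 and 0.998. Such likeness was common, since 952 of 11907 genes (8.0%) reached an r of 0.95 with *Il23r*. For *Il1r1* they were *Cycs*, *Ect2* and *Emc2*, with r of 0.991, 0.990 and 0.989, and 61 genes (0.512%) reached 0.95. These values describe 6 libraries of 2 genotypes that share their scaling, and carry no test.

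Markers of other cells moved with the genotype and are given for that reason. Over all genes tested, 24.7% were called higher and 26.1% lower. The 8 B cell markers summed to between 1140 and 1178 normalized reads in WT and between 1742 and 1808 in RORγtN275D libraries, of which *Ebf1* made up most. Without *Ebf1* the sums were 173 to 183 and 270 to 328. Of 7 tested, 6 were higher and 0 lower by limma (7 higher and 0 lower at an unadjusted p under 0.05), and *Ms4a1* was at 0 in some libraries. The 10 myeloid markers summed to between 92.9 and 112 in WT and between 114 and 140 in mutant libraries, with 1 of 3 tested higher and 1 lower, and *Csf1r*, *Tyrobp*, *Cd33* and *S100a8* at 0 in some. For CD8 T and natural killer cells, 7 of 8 markers were in the table and summed to between 216 and 225 in WT and between 295 and 338 in mutant libraries. Of 4 tested, 3 were higher and 0 lower by limma (3 and 0 at an unadjusted p under 0.05), and *Klrb1c* was at 0 in some libraries. Of the γδ T cell list only *Sox13* and *Blk* had rows here, and both were higher, with sums of 31.3 to 41.3 and 58.3 to 65.9. *Blk* is also on the B cell list, and none of the listed γδ receptor genes had a row. Regulatory T cell genes, many of which activated T cells share, summed to between 39927 and 41406 in WT and between 45376 and 46997 in mutant libraries. Of these 8, 4 were higher and 2 lower, and *Foxp3* had 50.9 ± 9.29 and 38.2 ± 5.0 normalized reads (SD, n = 3; adjusted p = 0.0755, limma). *Il1r2* is known from neutrophils, monocytes and regulatory T cells, and *Il1rn* from myeloid cells. The part of these cells in the receptor results was not tested.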

How the data were processed

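RNA-seq of 3 WT and 3 RORγtN275D Th17 libraries was analysed, with genotype and replicate taken from the labels. According to the methods, trimmed reads were aligned by the authors to mm10 (STAR), assigned to genes (featureCounts) and analysed for differential expression (DESeq2). The methods describe the libraries as strand-specific. Tool versions, the annotation and the strand setting of the counting are not given in the sources used here. The deposited signal values, for 16244 genes, are gene reads scaled by a single factor within each library. All were whole multiples of it within 1e-04, from which reads and the counting error were estimated. The table also holds the authors' log2 fold changes, q-values and group averages, which were not used. Every column of a library was used.

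Values were put on the scale log2(value + 1), which understates the change of low genes. Genes whose mean reached 10, 11908 in all, were tested with limma (version 3.58.1, R 4.3.3) with a trended prior of 12.0 degrees of freedom, with Benjamini-Hochberg adjustment over all of them. Ratios of reads were compared by an exact two-sided permutation test over libraries, and standard errors of ratios come from the SD pooled over both genotypes. Depth sets the counting error only, and intervals of limma cover the spread between libraries.

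The members and lists were chosen with earlier results of these data known. Genes named are the members, the other gene of each ratio, the genes of both genomic clusters, and in each pathway list the highest and lowest called gene and any called at 2-fold. Others named are for markers, overlapping exons or, in a list, because a count or a role turns on them, and were chosen after their values were seen. Coordinates are from RefSeq GRCm38.p6, the build mm10, and exon lengths from GENCODE M21. A result on 1 further gene is not reported here. Promoter entries covered 7 of the 8 members. The fit was tested on simulated data. Alternatives were other pseudocounts (0.1 and 10), filters, scalings, priors, library weights, a replicate block and each library left out in turn.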

Additional observations from a re-analysis of the deposited data

How the results depend on the processing

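All 6 called members kept their direction and their call under the 15 alternatives run, and *Il1rn* was called in none. *Il1r1* was called lower in 2 of them, given above, and its log2 fold change lay between -0.15 and -0.05. The members counted 3 higher, 3 to 4 lower and 0 at 2-fold throughout. Quantile normalization moved the log2 difference of the ratio of *Il1r1* to *Il1r2* to -0.68 and that of *Il1r1* to *Il1rap* to 0.42. Genes called at 2-fold, 427 as reported, were 259 with a pseudocount of 10, 703 with every mean above 0 and 162 with a mean of at least 100. IL-1 ligands counted 2 higher with every mean above 0 and 1 lower with a mean of at least 100. With a mean of at least 100, other gp130 receptors counted 1 lower and IL-6 and IL-12 family ligands 1 lower. The latter counted 1 lower under quantile normalization and 0 with every mean above 0, without a prior trend or with library weights. Proteases counted 1 lower without a prior trend, and 1 higher and 4 lower with library weights. When each library was left out in turn, the lower counts ranged from 1 to 4 (other IL-1 family receptors), 1 to 5 (chromosome 1 cluster), 1 to 2 (IL-1 ligands, and other gp130 receptors), 0 to 2 (IL-6 and IL-12 family ligands) and 1 to 3 (proteases), and the higher counts from 1 to 2 (IL-1 ligands) and 0 to 1 (proteases). The causes were not tested.

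The replicate numbers gave no sign of pairing, as deviations of libraries with the same number correlated at -0.05, 0.04 and -0.08. With 3 libraries per genotype, these values cannot exclude a pairing. With the replicate number as a block, 5727 genes were called in place of 6056, no member's call changed, and IL-1 ligands counted 2 higher and 1 lower. The planned edgeR and DESeq2 fits were not run, because the scaling factor of most libraries is so near 1 that the estimated reads were not accepted as count data; they served only for depth and counting error. Depth limits the low genes most: *Il1r2* had 181 reads in its lowest library, and several ligands lay near the filter.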
